A study of Mus musculus with 4 samples.

Results

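The 9 genes described here, Clu, Selp, Alcam, Nupr1, Aldh1a1, Sult1a1, Fhl1, Gda and Vldlr, are known to accumulate in haematopoietic stem cells of old mice or to mark dormant long-term stem cells. They were chosen by symbol, with their values in these arrays already known, and all 9 were found among 23185 named genes. Every value below is therefore a description, and no test of the 9 genes is given.

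The values come from long-term haematopoietic stem cells of mouse bone marrow, the rare cells that sustain blood formation for life. Marrow cells that were lineage-negative, c-Kit-positive and Sca-positive received 0, 0.02, 0.1 or 0.5 Gy of γ-irradiation and were then transplanted into lethally irradiated mice. All 4 groups, the unirradiated control included, thus went through transplantation and came from conditioned hosts. The long-term cells were sorted 6 months later by a gate that also required CD150 and the absence of Flk2 and CD48. No donor marker is part of that gate, so host-derived cells cannot be told from descendants of the graft. The sources used here do not give strain, genotype, age, sex or the number of mice behind each sample. Each dose is 1 array of total RNA, so a difference between doses is a difference between 2 arrays, with no spread between replicates to set it against. The dose labels and single arrays cannot be told apart.

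Stem cells of old animals are more numerous than those of young animals, rebuild blood less well, and give rise to more myeloid cells and platelets than lymphocytes. Their transcripts shift with age, and genes for adhesion, secreted chaperones and detoxifying enzymes are among those that become more abundant. Several of these genes are already detectable in the young cells with the deepest dormancy, so the aged and the dormant profiles overlap.

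Of the 5 genes of the gate, 4 were measured. Ly6a, the gene of the Sca marker, was not among the named genes, so its transcript is not given. Transcripts of the 2 other required markers were present. Kit ran from 10.12 to 10.57 on the log2 scale over the 4 arrays. The CD150 gene Slamf1, itself higher in old stem cells, had 7.67, 8.65, 7.16 and 7.77, written here and below in the order 0, 0.02, 0.1 and 0.5 Gy unless doses are named. Transcripts of the 2 excluded markers were lower. Flt3, the Flk2 gene, had 4.46, 4.76, 5.44 and 4.76, highest at 0.1 Gy. Cd48 had 4.13, 3.08, 4.11 and 4.13, lowest at 0.02 Gy. A gene was kept for counting when its mean over the 4 arrays reached 4.06, the median of all gene means, which left 11593 genes. All 9 genes were kept, and each of their values on each array lay above that level. Flt3 also lay above it on each array, and Cd48, though not kept, on each but the 0.02 Gy array. Array medians ran from 4.01 to 4.07.

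The start site regions of 5 of the 9 genes are printed here because these genes share 2 patterns over the doses, given below. Selp, Gda and Sult1a1 were 2-fold or more below 0 Gy at 0.1 Gy, and Alcam and Nupr1 were high at 0.02 Gy. At 0.5 Gy Selp and Gda were also 2-fold or more below 0 Gy, but Sult1a1 was 1.78-fold below. Vldlr was also high at 0.02 Gy but is not printed. Clu was also low at 0.1 and 0.5 Gy, but no window was available for it. Each printed region is 300 bases of RefSeq sequence, build GRCm38.p6, read 5′ to 3′ on the gene's strand. The window runs from 250 bases before the annotated start to 50 after it. Capitals mark matches, on either strand, to the letters listed in the paragraph after the sequences.
Selp, chr1:164115014-164115313, plus strand: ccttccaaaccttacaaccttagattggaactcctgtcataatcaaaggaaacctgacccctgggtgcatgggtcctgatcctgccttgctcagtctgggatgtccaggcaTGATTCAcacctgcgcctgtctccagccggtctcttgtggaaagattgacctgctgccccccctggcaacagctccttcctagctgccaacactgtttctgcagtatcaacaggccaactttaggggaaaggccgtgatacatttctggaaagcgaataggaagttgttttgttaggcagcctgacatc
Gda, chr19:21472612-21472911, minus strand: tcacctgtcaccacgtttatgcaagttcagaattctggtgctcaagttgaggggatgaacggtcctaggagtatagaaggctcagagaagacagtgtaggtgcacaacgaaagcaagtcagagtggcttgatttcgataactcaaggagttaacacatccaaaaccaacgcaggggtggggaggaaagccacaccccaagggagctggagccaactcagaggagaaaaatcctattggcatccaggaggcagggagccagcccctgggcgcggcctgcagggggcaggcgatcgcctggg
Sult1a1, chr7:126676369-126676668, minus strand: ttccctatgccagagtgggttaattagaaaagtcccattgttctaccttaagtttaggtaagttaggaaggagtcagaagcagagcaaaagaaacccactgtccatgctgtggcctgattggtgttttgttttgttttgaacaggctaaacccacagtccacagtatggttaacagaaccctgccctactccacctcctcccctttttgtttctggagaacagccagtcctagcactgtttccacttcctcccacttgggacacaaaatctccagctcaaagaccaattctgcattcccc
Alcam, chr16:52453032-52453331, minus strand: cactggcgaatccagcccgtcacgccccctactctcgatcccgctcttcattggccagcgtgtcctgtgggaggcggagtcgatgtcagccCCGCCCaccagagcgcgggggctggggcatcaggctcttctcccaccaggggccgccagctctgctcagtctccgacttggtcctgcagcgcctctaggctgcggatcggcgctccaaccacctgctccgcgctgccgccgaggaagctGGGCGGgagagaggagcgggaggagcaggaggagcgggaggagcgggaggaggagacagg
Nupr1, chr7:126625421-126625720, minus strand: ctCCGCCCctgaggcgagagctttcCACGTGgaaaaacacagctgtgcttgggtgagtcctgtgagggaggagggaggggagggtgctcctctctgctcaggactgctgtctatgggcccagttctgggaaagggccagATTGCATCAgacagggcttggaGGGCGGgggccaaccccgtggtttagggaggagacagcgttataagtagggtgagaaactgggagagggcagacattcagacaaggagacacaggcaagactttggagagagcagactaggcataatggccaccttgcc

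RefSeq windows matched 8 of the 9 genes and numbered 11, because Aldh1a1, Fhl1 and Vldlr had more than 1 start. Nupr1, a gene induced by stress, held a composite C/EBP-ATF element (TGATGNAAT), with its leftmost base at position -111 from the start site, letters that 0.965% of all 32851 windows contain and 0.425% of those of kept genes. Shares below are given in that order. It also held an E-box (CACGTG), found in 7.15% and 10.1% of windows. The GC box (GGGCGG) was present for Alcam, Nupr1 and Vldlr, against 35.7% and 62.5%. An AP-1 match (TGANTCA) lay at position -139 of Selp, and another in a window of Aldh1a1, against 7.81% and 4.80%. The GATA letters (AGATAA) were found for Aldh1a1 alone among the 8 genes, against 11.2% and 6.34%. Fhl1 alone held the letters of the TATA box (TATAAA), against 13.6% and 7.22%. That match lay on the opposite strand, at position -156 of 1 of its windows, so it describes letters and not a working TATA box. Fhl1 was also the only gene with the heat shock letters (GAANNTTC), against 7.86% and 5.73%. Neither Gda nor Sult1a1 held any of the letters searched. No window of the 8 genes held the CRE letters (TGACGTCA), which 1.79% and 2.90% of windows contain. The same was true of the ETS letters (CCGGAAG), against 8.86% and 17.8%, and of the longer NFE2 element, which has an AP-1 match within it, against 0.155% and 0.0868%.

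The windows also differed in base composition. Alcam had 25 CpG dinucleotides in its 300 bases and a GC content of 69.7%, whereas Sult1a1 had 0 CpG and 46.3%. Selp had 4, Nupr1 6 and Gda 9, and the median of all windows was 7. A match or a base count describes these letters only.

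Across the 4 arrays, 6 of the 9 genes had the same outline. The 0.02 Gy array held the highest value for 8 of the 9, and the 0.1 Gy array the lowest for 7 of the 9. Over all kept genes, 21.3% were highest at 0.02 Gy and 21% lowest at 0.1 Gy. For 6 genes, Clu, Selp, Nupr1, Sult1a1, Fhl1 and Gda, the 0.02 Gy value lay above 0 Gy and both higher doses lay below it, an outline that 6.21% of kept genes had. The range over the arrays reached 1 log2 unit, which is 2-fold, for 7 genes, against 12.2% of kept genes. Aldh1a1 and Fhl1 were the 2 with narrower ranges. The earlier results that led to the choice of the 9 genes used these same contrasts, so the shares are printed for scale.

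**Figure D1:**
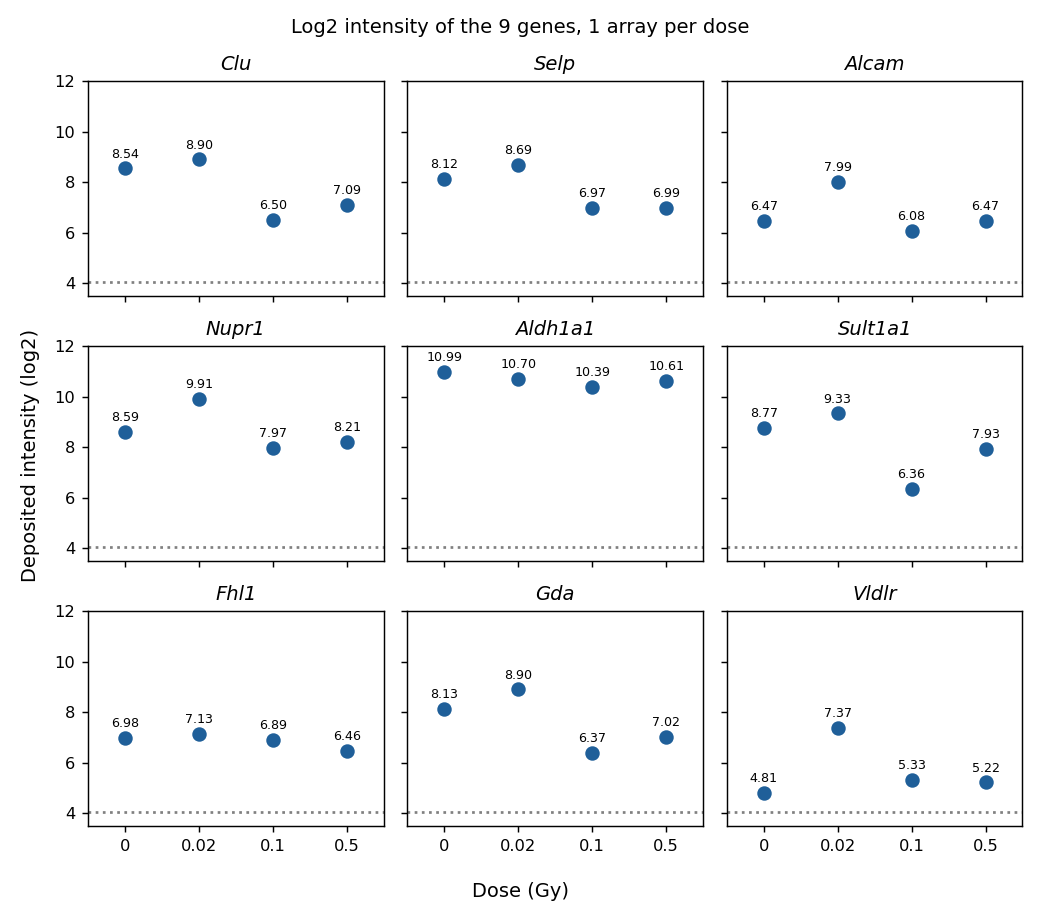
Deposited log2 intensity of each of the 9 genes (vertical axis) at 0, 0.02, 0.1 and 0.5 Gy (horizontal axis, evenly spaced categories), 1 point per array, with the dotted line at the filter level of 4.06. The 0.02 Gy point is the highest in each panel except that of Aldh1a1, and Sult1a1 has the widest range, from 6.36 to 9.33.

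Adhesion molecules come first. Selp encodes P-selectin, the receptor that platelets and endothelial cells display to catch rolling leukocytes. Its log2 intensities were 8.12, 8.69, 6.97 and 6.99 in the order of dose. The 2 low-lying arrays, 0.1 and 0.5 Gy, were almost equal and stood 2.22-fold and 2.19-fold below 0 Gy. Between 0.02 and 0.1 Gy the gap was 3.30-fold. Alcam encodes CD166, an adhesion molecule of the immunoglobulin superfamily that binds CD6 and itself. It had 6.47, 7.99, 6.08 and 6.47, so the 0.02 Gy array alone stood high. The value at 0.02 Gy was 2.88-fold above 0 Gy, while the value at 0.5 Gy was exactly that at 0 Gy. Such ties are common in the deposited table, where 46.3% of kept genes have at least 1 among the 4 arrays.

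Clu encodes clusterin, a secreted chaperone that binds unfolded proteins and complement, and it marks stem cells inclined toward platelet and myeloid output. The log2 intensities were 8.54, 8.90, 6.50 and 7.09. The 0 and 0.02 Gy arrays were high, with a difference of 0.35, and the other two low. Against 0 Gy the 0.1 Gy array was 4.13-fold lower, a difference as large and in the same direction as in 0.587% of kept genes. At 0.5 Gy Clu was 2.73-fold lower.

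Vldlr encodes the receptor for very-low-density lipoprotein, which also carries the signal of the extracellular protein reelin. It differed from the rest in that 0 Gy was its lowest array, with log2 values of 4.81, 7.37, 5.33 and 5.22. The 0.02 Gy array alone stood apart, 5.92-fold above 0 Gy, and 0.509% of kept genes were as far above. At 0.1 and 0.5 Gy the differences from 0 Gy were 0.52 and 0.41, the only positive ones among the 9 genes at these doses. As 3 of its 4 values, from 4.81 to 5.33, were close to the filter level, the size of the 0.02 Gy difference is less certain than for brighter genes.

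Nupr1 encodes a small nuclear protein that binds chromatin and is induced by many kinds of stress. It had log2 intensities of 8.59, 9.91, 7.97 and 8.21 by dose. The 0.02 Gy array was high, 2.51-fold above 0 Gy, and the other 3 lay within 0.61 of each other. Among the 36 pairs of the 9 genes, Nupr1 and Alcam were the closest in pattern, with a root mean square distance of 0.28 between their 3 differences from 0 Gy. The farthest pair was Clu and Vldlr, at 2.23.

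The enzymes among the 9 genes handle small molecules. Sult1a1 encodes a cytosolic sulfotransferase that adds sulfate to phenols, in detoxification and in the handling of hormones. Its log2 values were 8.77, 9.33, 6.36 and 7.93. The 0.1 Gy array was lowest by far, 5.32-fold below 0 Gy and 7.87-fold below 0.02 Gy. It was also the only gene of the 9 with a 2-fold difference between 0.5 and 0.1 Gy, 2.98-fold higher at the higher dose, and 1.58% of kept genes were 2-fold or more higher in that comparison.

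Gda encodes guanine deaminase, which turns guanine into xanthine in purine breakdown. It had log2 intensities of 8.13, 8.90, 6.37 and 7.02. As for Clu, the 0 and 0.02 Gy arrays were the high ones. The 0.1 Gy array was 3.38-fold and the 0.5 Gy array 2.16-fold below 0 Gy.

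Aldh1a1 encodes an aldehyde dehydrogenase that makes retinoic acid from retinaldehyde and clears other aldehydes. It had log2 intensities of 10.99, 10.70, 10.39 and 10.61. These 4 values spanned 0.61, or 1.52-fold, and 31.2% of kept genes had a range at least as wide. It was the only gene of the 9 whose highest array was 0 Gy. Its close relative Aldh1a7 had 3.57, 3.99, 3.99 and 3.99, all below the filter level, and cross-hybridization between the 2 probe sets was not tested. Fhl1, which encodes a LIM domain protein abundant in muscle, had 6.98, 7.13, 6.89 and 6.46. The 0.5 Gy array was the low one, and the range of 0.66 was reached by 27.2% of kept genes.

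Each dose was then set against 0 Gy. At 0.02 Gy, 3 of 9 were 2-fold or more higher, Alcam, Nupr1 and Vldlr, and 0 were lower, where 2.48% of kept genes were higher and 1.55% lower. The median log2 difference was 0.57. At 0.1 Gy, 4 of 9 were 2-fold or more lower, Clu, Selp, Sult1a1 and Gda, against 2.68% of kept genes, and 0 were higher, against 1.59%. The median was -0.61. At 0.5 Gy, 3 of 9 were lower, Clu, Selp and Gda, against 3.01% of kept genes, and 0 were higher, against 1.63%, with a median of -0.52. The 4th gene of the 0.1 Gy set, Sult1a1, stood at -0.84 at 0.5 Gy. The median of all kept genes was 0.00 in each of these comparisons. The 3 comparisons share the 0 Gy array.

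Between irradiated arrays, all 9 genes were lower at 0.1 Gy than at 0.02 Gy. Of all kept genes 41.6% were lower there. The difference was 2-fold or more for 7, against 3.23% of kept genes, and for each of the 7 it was also 3-fold or more. None was 2-fold or more higher, against 1.52%. The median was -1.94, a 3.84-fold difference, and the extremes were -2.98 for Sult1a1 and -0.24 for Fhl1. All 9 were likewise lower at 0.5 Gy than at 0.02 Gy, as were 44% of kept genes. There 7 were 2-fold or more lower, against 3.3% of kept genes, and 0 higher, against 1.57%, with a median of -1.70. Between 0.5 and 0.1 Gy the median was 0.24, with Fhl1 and Vldlr below 0, and 0 of the 9 were 2-fold or more lower, against 1.93% of kept genes. The values therefore do not follow the order of dose: the smallest dose had the highest and the middle dose the lowest values for most of the 9 genes.

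**Figure D2:**
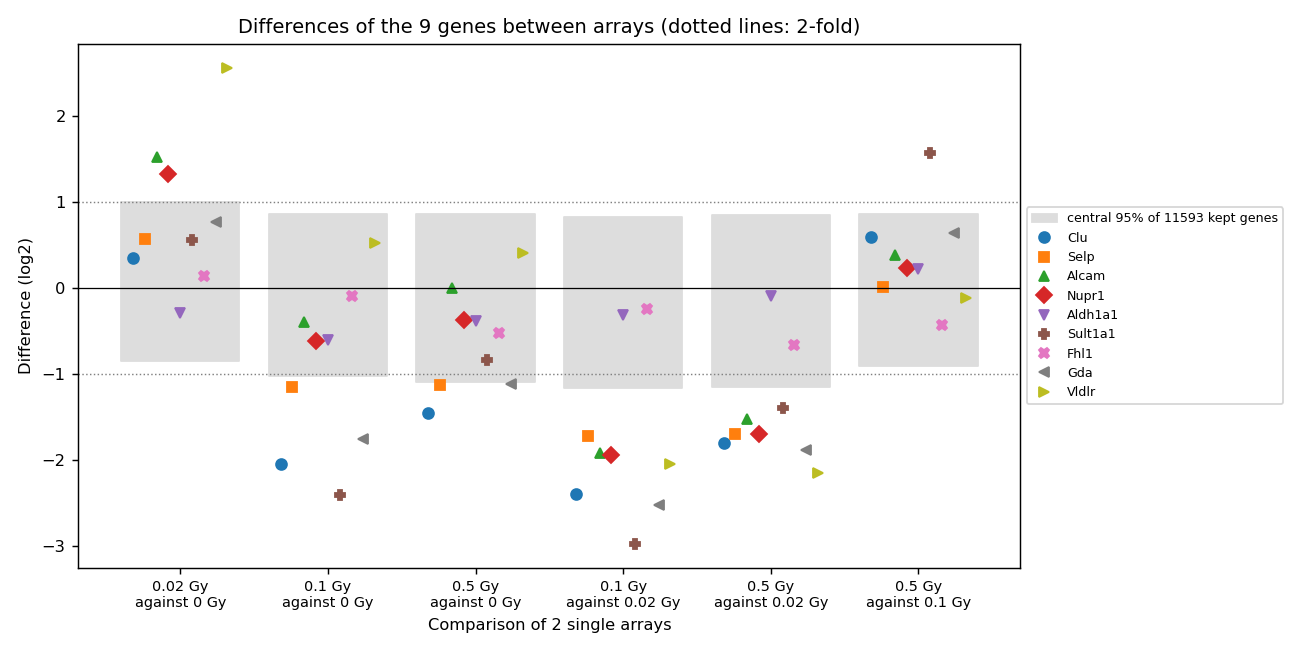
Log2 difference (vertical axis) of each of the 9 genes in 6 comparisons of 2 single arrays (horizontal axis), 1 symbol per gene, with grey boxes for the central 95% of 11593 kept genes and dotted lines at 2-fold. In the comparison of 0.1 with 0.02 Gy, 7 symbols lie below the grey box, from -2.98 to -1.72, and those of Aldh1a1 and Fhl1 lie inside it.

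Other genes reported to be higher in old stem cells were then looked at, from a list of 30 that leaves out the 9. That list, like those below, was written with earlier results of these data known, so its counts are a description too. Of the 30, 29 were measured and 24 kept. At 0.02 Gy, 1 of 24 was 2-fold or more higher than at 0 Gy, Plcl1, named after its value was seen, and 1 lower, Neo1, with a median difference of 0.39. At 0.1 Gy, 9 were lower by 2-fold or more and 0 higher (median -0.65), and at 0.5 Gy again 9 lower and 0 higher (median -0.43). Between 0.1 and 0.02 Gy, 12 of 24 were lower by that much and 0 higher (median -0.97). The shares over all kept genes are those given above for the same comparisons.

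Neo1, which encodes the netrin receptor neogenin, was the furthest of these from 0 Gy, with 7.47, 6.38, 4.61 and 4.35. Unlike most of the 9 genes it was already lower at 0.02 Gy. Jam2, a junctional adhesion molecule, had 6.62, 7.54, 4.30 and 4.94, high at 0 and 0.02 Gy and low at the other doses, as for Clu and Gda. Gstm2, a glutathione transferase, had 9.05, 8.72, 7.14 and 7.94, with its lowest value at 0.1 Gy. The transcription factor gene Pbx3 had 7.32, 6.79, 6.26 and 4.89, a gene for which the order of values was the order of dose. Vwf, which encodes the platelet adhesion protein von Willebrand factor and marks platelet-biased stem cells, had 8.58, 8.98, 7.14 and 7.28, the same order of arrays as Selp. It is also on the platelet marker list below, as are Itgb3 and Itga2b.

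**Figure D3:**
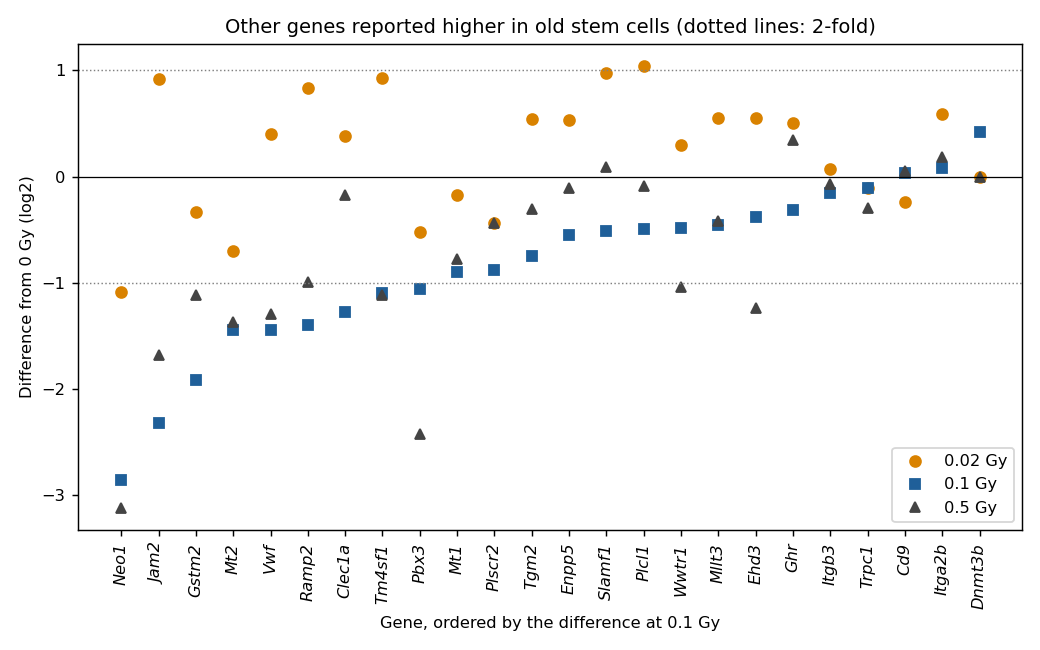
Log2 difference from 0 Gy (vertical axis) of 24 kept genes from the list of other genes higher in old stem cells (horizontal axis, ordered by the 0.1 Gy difference), with circles for 0.02 Gy, squares for 0.1 Gy and triangles for 0.5 Gy, 1 array each, and dotted lines at 2-fold. At 0.1 Gy 9 squares lie at or below the lower dotted line and 0 above the upper one.

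Genes of dormant long-term stem cells outside the 9 had medians closer to 0. Of 19 kept, 1 was 2-fold or more higher at 0.02 Gy, Procr, 2 were lower at 0.1 Gy, Rarb and Prdm16, and 1 at 0.5 Gy, Rarb, with medians of 0.19, -0.26 and -0.18. Between 0.1 and 0.02 Gy, 5 of the 19 were lower by 2-fold or more and 0 higher, against the 3.23% and 1.52% of kept genes given above, and the median was -0.62. Procr, the EPCR gene that marks stem cells of high repopulating ability, had 6.79, 8.17, 7.09 and 7.64 and so was lowest at 0 Gy, as was Vldlr. Rarb, a retinoic acid receptor gene, had 6.91, 6.35, 4.46 and 4.31. Prdm16, which encodes a regulator of stem cell maintenance, had 6.28, 6.47, 4.94 and 6.28, low at 0.1 Gy alone. Tcf15, a transcription factor gene of quiescent stem cells, had 6.50, 6.56, 6.56 and 5.64.

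The partners and relatives of the 9 genes were mostly within 2-fold of 0 Gy, and so were most kept genes. Of kept genes, 2.48%, 1.59% and 1.63% were higher and 1.55%, 2.68% and 3.01% lower at 0.02, 0.1 and 0.5 Gy. The counts of relatives below stand beside these shares, and a count of 0 in such short lists is near them. Of 7 kept genes for aldehyde dehydrogenases and retinoid handling, 1 was 2-fold or more lower at 0.5 Gy, the retinol dehydrogenase gene Rdh10 at 3.86 against 4.86, and 0 were 2-fold apart at the other doses. Cyp26b1, which breaks down retinoic acid, had 5.45, 5.37, 4.59 and 5.04, and Dhrs3, which turns retinaldehyde back to retinol, 7.03, 6.91, 6.24 and 7.10. The other cytosolic sulfotransferase genes on the list were below the filter, with 1 of 10 list members kept, Papss1, which makes the sulfate donor and had 5.85, 5.89, 6.15 and 5.67. The genes of the Golgi enzymes Tpst1 and Tpst2, which sulfate P-selectin ligand, were kept.

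The E-selectin gene Sele lay between 2.72 and 2.90, below the filter. Of 8 kept genes for P-selectin ligand and its synthesis, 0 were 2-fold apart from 0 Gy at any dose. Selplg, the ligand itself, had 8.62, 9.20, 8.99 and 9.38, lowest at 0 Gy. For 6 genes around ALCAM, 1 was lower at 0.1 Gy, the laminin receptor gene Bcam at 4.64 against 5.74. Cd6, the ligand of ALCAM, was near the filter level with 4.59, 4.45, 4.59 and 5.06. Of 5 kept genes of the VLDL receptor pathway, 1 was lower at 0.5 Gy, the lipoprotein lipase gene Lpl at 4.10 against 5.24. The receptor chaperone gene Lrpap1 had 6.87, 7.43, 6.77 and 7.28, and Mylip, whose product marks the receptor for degradation, 5.92, 6.49, 5.92 and 5.69.

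Among 9 kept genes of purine breakdown and salvage, 0 were 2-fold apart from 0 Gy, and Aprt, a salvage enzyme gene, was at 8.96 at 0.5 Gy against 8.27. Of 7 kept genes for LIM proteins related to FHL1, 0 were 2-fold apart, and Csrp2 had 6.57, 6.99, 5.83 and 6.14. The 10 kept genes of the ATF4 stress response, the pathway that induces Nupr1, had 0 genes 2-fold apart at 0.02 Gy, where Nupr1 was highest. Ddit3 was close to that level, at 0.97 above 0 Gy on the log2 scale, with Ddit4 at 0.71 and Atf3 at 0.50. Trib3 stood at -0.85, and the median of the 10 was -0.20. At 0.1 Gy 1 was higher, Ddit3 at 7.81 against 6.43, and 2 were lower, Ddit4 at 4.95 against 6.08 and Trib3 at 4.11 against 5.28. At 0.5 Gy 2 were higher, Ddit3 at 7.57 and Atf3 at 7.91 against 6.81. Of 3 kept genes for complement regulators, 1 was 2-fold higher at 0.5 Gy, Cd59a at 6.08 against 5.06. Some relatives did differ by 2-fold or more between 0.1 and 0.02 Gy, all of them lower at 0.1 Gy. These were 2 of the 3 complement regulators, Cd59a and Cd55, and 2 of the 6 genes around ALCAM, Bcam and Esam. Csrp2 was 1 of 7 LIM protein genes and Ddit4 1 of 10 ATF4 genes. Over all kept genes 3.23% were lower there and 1.52% higher.

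Markers of other cell types also differed between these arrays, and their part in the values of the 9 genes was not tested. In bulk RNA, fewer cells of a type and less RNA per cell cannot be told apart. Counts of markers past 2-fold stand beside the shares of all kept genes given above. Against 0 Gy these were 2.48%, 1.59% and 1.63% higher and 1.55%, 2.68% and 3.01% lower at 0.02, 0.1 and 0.5 Gy. At 0.1 against 0.02 Gy, 4 of 7 kept B and plasma cell markers were 2-fold or more lower and 0 higher. So were 3 of 4 monocyte markers, with 0 higher. Of 6 neutrophil markers 5 were higher and 0 lower, and of 7 erythroid markers 2 and 0. Of 12 platelet markers 1 was lower, and of 4 multipotent progenitor markers 1 was higher and 1 lower. The kept endothelial, stromal and T and NK markers had 0 either way. Over all kept genes 3.23% were lower there and 1.52% higher. Of the 7 kept B cell and plasma cell markers, 3 were 2-fold or more higher at 0.02 Gy than at 0 Gy, Cd79a, Cd79b and Mzb1, and 0 lower. At 0.1 Gy 1 was lower, Jchain, and at 0.5 Gy 2, Jchain and Mzb1, with 0 higher at either dose. The summed log2 level of the 9 measured markers was 49.7, 56.5, 46.7 and 42.9 by dose, with 2 to 4 of the 9 below the filter level. Jchain, the joining chain of secreted antibodies, had 9.75, 10.69, 8.46 and 7.32, the same high and low pairs of arrays as Clu. The defining B cell gene Pax5 had 4.26 on each array.

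Monocyte and macrophage markers summed to 42.9, 44.9, 37.9 and 41.2 over 9 measured genes, 5 or 6 of them below the filter level. Of the 4 kept, 2 were 2-fold or more higher at 0.02 Gy than at 0 Gy, Cd68 and Ctss, and 0 lower. At 0.1 Gy 2 were lower, Cd68 and Cd74, and 0 higher, and at 0.5 Gy 0 passed 2-fold. Cd68 had 6.10, 7.78, 4.02 and 6.18, and Cd74 9.94, 9.68, 7.87 and 9.23, both lowest at 0.1 Gy. Ctss had 5.95, 7.22, 5.55 and 5.40, lowest at 0.5 Gy. C1qa had 4.57, 4.23, 4.16 and 4.40. Neutrophil and granulocyte progenitor markers had their highest sum at 0.1 Gy, where most of the 9 genes were lowest, with sums of 40.2, 44.7, 57.7 and 47.6 over 10 genes, of which 3 to 7 were below the filter level. Of the 6 kept, 5 passed 2-fold upward from 0 to 0.1 Gy, all but Prtn3, against 1.59% of kept genes, and 0 passed downward. From 0 to 0.02 Gy 3 passed upward and 1 downward, S100a8. From 0 to 0.5 Gy it was 2 upward, Mpo and Elane, with 0 downward. Ctsg, S100a8 and S100a9 peaked at 0.1 Gy, with log2 differences from 0 Gy of 2.23, 2.65 and 2.84. Mpo did too, with 4.78, 6.44, 8.75 and 7.07. Prtn3 was highest at 0.02 Gy, with 7.60, 8.81, 8.04 and 8.21, and Elane at 0.5 Gy, with 3.54, 4.09, 6.09 and 6.28. Cd34, which mouse progenitors carry and long-term stem cells largely lack, had 8.68, 7.79, 9.77 and 9.70, lowest where most of the 9 genes were highest. The 4 kept multipotent progenitor markers did not move together. At 0.1 and at 0.5 Gy 1 was 2-fold or more higher than at 0 Gy, Cd34, and 1 lower, Mycn, with 7.83, 7.62, 6.49 and 6.49.

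The platelet and endothelial markers are of interest because Selp, Clu and Alcam are also expressed in those cells. Of 12 kept megakaryocyte and platelet markers, 0 were 2-fold or more higher and 0 lower at 0.02 Gy. At 0.1 and at 0.5 Gy 2 were lower, Gp1bb and Vwf, and 0 higher. The 14 measured markers had sums of 100.1, 98.9, 95 and 96.5, with 2 below the filter level on each array. Pf4, platelet factor 4, ran from 9.99 to 10.51 and was highest at 0 Gy, and Gp1bb had 7.50, 6.54, 6.30 and 6.43. The 10 endothelial markers summed to 55.1, 53.5, 52.2 and 51.1, with 4 or 5 below the filter level. Sox18 had 6.35, 3.91, 4.38 and 4.38, and Pecam1 7.67, 7.22, 7.22 and 7.22, both highest at 0 Gy. Cldn5, a tight junction gene of endothelium that was not kept, had 3.61, 5.64, 3.62 and 3.01, high at 0.02 Gy alone as Alcam and Vldlr were. Stromal markers summed to 30.5 to 31.3 over 10 genes, 9 of them below the filter level on each array. The 8 erythroid markers summed to 50.9, 49.4, 54.2 and 55.8, with 1 or 2 below the filter level. Of the 7 kept, 2 were 2-fold or more higher at 0.1 Gy and 3 at 0.5 Gy, and 0 lower. Klf1 and Car1 were higher at both doses and Gata1 at 0.5 Gy. Car1, a red cell carbonic anhydrase, had 8.42, 7.59, 9.77 and 10.34, lowest where most of the 9 genes were highest. T and NK cell markers summed to between 33.7 and 35.4 over 9 genes, 7 of them below it, and multipotent progenitor markers to between 39.8 and 42.8 over 8 genes, 3 or 4 of them below it.

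**Figure D4:**
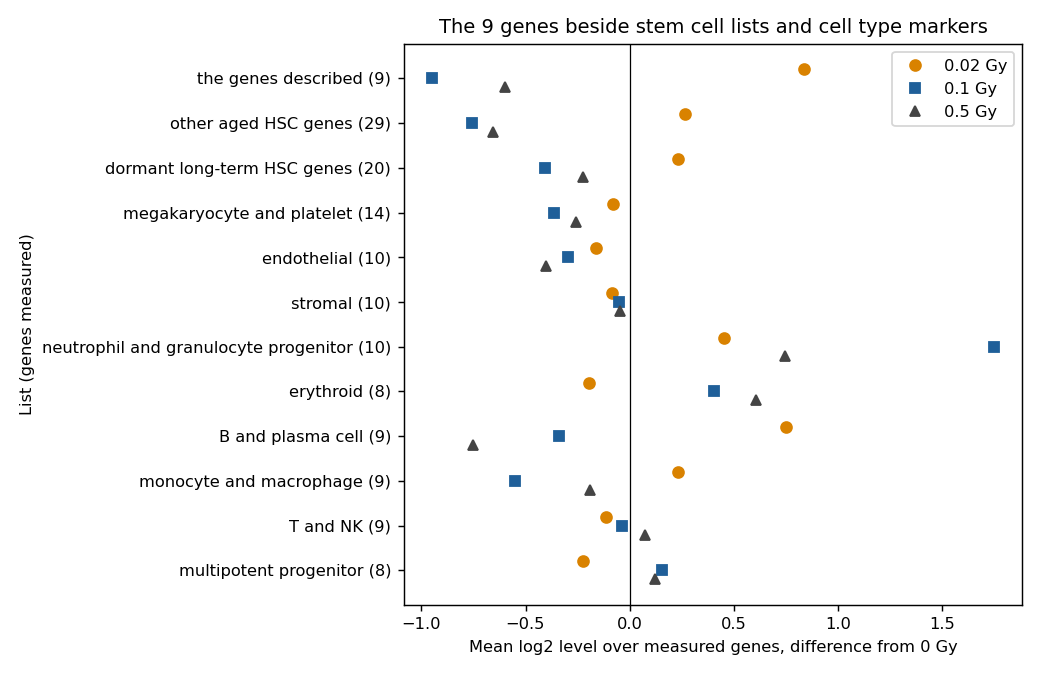
Difference from 0 Gy in the mean log2 level (horizontal axis) of the 9 genes (top line), 2 stem cell lists and 9 lists of cell type markers (vertical axis, measured genes in brackets), with circles for 0.02 Gy, squares for 0.1 Gy and triangles for 0.5 Gy, 1 array each. The 9 genes lie at 0.84, -0.95 and -0.60, the B and plasma cell markers at 0.75, -0.34 and -0.75, and the granulocyte markers at 0.45, 1.75 and 0.75.

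The genes nearest in pattern were found for the 7 genes with a range of 1 log2 unit or more, as the smallest root mean square distance over the 3 differences from 0 Gy among kept genes. How many genes lay close differed: 21 were within 0.3 of Alcam, 19 of Selp and 17 of Nupr1, against 3 of Gda, 2 of Clu and 1 each of Sult1a1 and Vldlr. Clu was closest to Clip3, at 0.13, and to Entpd1, at 0.15. Selp was closest to Tmem154, at 0.07, and Stk38l, at 0.15. Alcam was closest to Apbb2, at 0.07, and Slamf9, at 0.08, each with the same exact tie of 0 and 0.5 Gy. For Nupr1 they were Fscn1, at 0.15, and Ctss, a monocyte marker on the list above, at 0.16. The nearest to Sult1a1 were Clip3, at 0.32, and its fellow Gda, at 0.43. Gda itself was nearest to Ramp2, at 0.22, a gene on the list of other genes higher in old stem cells, and to Sdc4, at 0.28. Vldlr was nearest to Eps8l1, at 0.25, and to the transcriptional repressor gene Bcl6, at 0.31.

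Position in the genome was not used to choose the genes. In RefSeq, Nupr1 and Sult1a1 lie close together on chromosome 7, with Sgf29 near them, and Aldh1a1, Gda and Vldlr all lie on chromosome 19. Genes starting within 200 kb were measured for 8 of the 9 genes, all but Alcam. Of 37 such kept genes outside the 9, 0 were 2-fold or more different between 0.1 and 0.02 Gy. Over all kept genes 3.23% were lower and 1.52% higher there, so a count of 0 among 37 is near the general share. Differences of the 37 neighbours ran from -0.76 to 0.76, while Nupr1 and Sult1a1 stood at -1.94 and -2.98. Sgf29, a subunit gene of a histone acetyltransferase complex, had 7.71, 7.69, 7.26 and 8.04. Anxa1, the kept neighbour of Aldh1a1, had 7.22, 7.84, 7.08 and 7.99, and Zfand5, that of Gda, 9.64, 9.85, 9.79 and 9.78. Against 0 Gy some neighbours were 2-fold or more lower: 2 of the 37 at 0.02 Gy, 1 at 0.1 Gy and 2 at 0.5 Gy, with 0 higher. The shares of all kept genes that were lower were 1.55%, 2.68% and 3.01%. The lower neighbours were named after their values were seen. Mettl18, beside Selp, had 5.55, 4.16, 4.37 and 4.37, lower at each dose, while Selp was higher at 0.02 Gy. Pbk, beside Clu, was at -1.04 at 0.02 Gy, and Map7d3, beside Fhl1, at -1.78 at 0.5 Gy, where Fhl1 also had its lowest value.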

How the data were processed

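RNA from 4 samples, 1 per dose, was labelled with an Affymetrix whole-transcript kit, per the labels' protocols. The authors deposited log2 intensities for probe sets that each stand for an Entrez gene, with the base taken from the span of values (1.22 to 13.0). The submitters' processing notes name Partek, without its role. How background was corrected and arrays normalized, and on which build, is not given in the sources used here. Values were used as deposited. Of 25206 probe sets, 23185 had a symbol in the platform table, updated through RefSeq where Entrez numbers matched, and 2021 did not. Genes with a mean at or above the median gene mean were kept. Differences are between single arrays, so no test, SD or p-value is given, and the number of arrays limits precision. The counting code was tested on simulated data. Symbol lists, the 2-fold level, named genes (up to 4 per list with the largest difference from 0 Gy, the 2 nearest in pattern, marker genes and neighbours within 200 kb) and motifs were fixed with earlier results of these data known, as were the 9 genes. Alternatives were quantile normalization, median centring and cyclic loess (limma 3.58.1 in R 4.3.3), no filter, a stricter filter, 1.5-fold and 3-fold thresholds, and a control made of the mean of the other 3. Calculations used Python 3.11.15 and pandas 2.3.3.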

Additional observations from a re-analysis of the deposited data

How the results depend on the processing

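The 2-fold level decided several counts of the 9 genes. At 3-fold, 1 gene rather than 3 differed between 0.02 and 0 Gy, and 0 rather than 3 between 0.5 and 0 Gy. Between 0.5 and 0.1 Gy, 1 gene differed at 2-fold, 3 at 1.5-fold and 0 at 3-fold. With a control made of the mean of the other 3 arrays, 7 genes were 2-fold or more higher at 0.02 Gy, with a median of 1.65, and 0 differed at 0.5 Gy. These changes follow from the threshold or from the arrays that make up the control. The other 39 of 45 alternative counts were within 1.5 times the value given, and the other 32 of 33 medians kept their sign and moved by less than 1.5-fold. All 81 differences of single genes from 0 Gy under the 3 scalings moved by less than 1.5-fold, and 0 changed sign. Alcam at 0.5 Gy, equal to 0 Gy as deposited, became 0.03 to 0.05. The stricter filter kept 7729 genes and all 9. No paired analysis was possible because each dose has 1 array and the labels give no replicate numbers.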
